A study of Mus musculus with 12 samples.

Results

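The interferon-induced genes are 44 mouse genes named by their roles: subunits of the type I interferon receptor, STAT and IRF transcription factors, antiviral effectors, nucleic acid sensors and interferon-induced GTPases. They were followed in RAW 264.7 cells, an adherent monocyte/macrophage cell line of mouse made with Abelson murine leukaemia virus. Their members were the rows of the deposited array table whose only gene symbol is 1 of the 44 names, among 22180 symbols with such a row. Cells were plated at 10000 per cm2, grown to confluence and harvested 48 h after transfection. The 4 arrays of pre-miR-223 came from cells given an oligonucleotide that supplies miR-223, the 4 arrays of anti-miR-223 from cells given an inhibitor of miR-223, and the 4 arrays of scramble from cells given an irrelevant sequence. All 3 groups therefore carry a transfected oligonucleotide, and untransfected cells are not analysed here. The titles call the arrays biological replicates, and nothing in the sources used here says more about their origin, so the spread between them may be partly technical. All of them are of 1 cell line.

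Type I interferons bind a receptor made of IFNAR1 and IFNAR2, whose kinases activate STAT2. Together with IRF9 it is part of the ISGF3 complex, which binds the interferon-stimulated response element (ISRE) in the promoters of many genes. Many of the induced proteins act on viral RNA or on its translation, and others, such as USP18, dampen the signal. Macrophages keep a tonic level of this programme through small amounts of interferon. miR-223 is abundant in myeloid cells, and the comparisons ask whether transcripts of the programme follow a gain or a loss of its activity.

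The sequences below show what was added or blocked and which regulatory letters the members share. Mature mouse miR-223 is given by RefSeq (GRCm38.p6, plus strand of the X chromosome), with its seed, bases 2 to 8, in capitals; the 3p strand is the one usually meant by the name.
mmu-miR-223-3p: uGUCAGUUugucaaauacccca
mmu-miR-223-5p: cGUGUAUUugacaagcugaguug
Whether the deposited labels' pre-miR-223 and anti-miR-223 products match these letters is not stated in the sources used here.

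RefSeq promoter windows of 300 bases (GRCm38.p6, 250 before and 50 after a gene's start) were given for 35 of the 44 members. The ISRE core, searched on both strands as the letters GAAA, any 2 bases and again GAAA, was present in a window of 17 of these 35 members (48.6%), against 1079 of 27025 genes with a window (3.99%). Matches may overlap each other, as they do in Isg15 and Irgm1. The gamma-activated sequence, the letters TTCNNNGAA, which read the same on both strands, was present for 12 of the 35 members (34.3%), against 9.55% of all genes with a window. A match of letters is a description and not a measured binding site. The stretches below lie before the start of genes that encode the ubiquitin-like modifier ISG15, the IFIT RNA-binding proteins, an oligoadenylate synthetase and immunity-related GTPases. They are given 5′ to 3′ on the gene's strand with the ISRE core letters in capitals.
Isg15, chr4:156200849-156200928, minus strand: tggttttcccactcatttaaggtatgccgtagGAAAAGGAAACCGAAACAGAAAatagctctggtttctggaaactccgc
Ifit1, chr19:34640769-34640828, plus strand: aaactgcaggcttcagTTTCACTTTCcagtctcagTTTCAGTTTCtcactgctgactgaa
Ifit3, chr19:34583359-34583428, plus strand: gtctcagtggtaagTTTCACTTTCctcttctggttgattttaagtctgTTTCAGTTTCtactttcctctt
Oas3, chr5:120777700-120777759, minus strand: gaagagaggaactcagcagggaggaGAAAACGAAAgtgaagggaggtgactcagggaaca
Irgm1, chr11:48871421-48871480, minus strand: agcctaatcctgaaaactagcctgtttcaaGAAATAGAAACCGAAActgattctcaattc
Irgm2, chr11:58214887-58214946, plus strand: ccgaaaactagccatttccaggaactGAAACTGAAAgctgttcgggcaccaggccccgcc
Igtp, chr11:58199496-58199555, plus strand: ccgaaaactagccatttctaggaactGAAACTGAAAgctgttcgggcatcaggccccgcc
Isg15 has 3 overlapping matches, Ifit1, Ifit3 and Irgm1 have 2 each, and Oas3, Irgm2 and Igtp have 1 in the stretch shown. The stretches of Irgm2 and Igtp are the same at 58 of 60 bases.

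Of the 44 members, 41 had at least 1 transcript cluster (the array's unit of measurement) whose only symbol was theirs. The clusters of Oas1a and Gbp2 each carry a second gene's symbol and Ifi44 had no cluster with its symbol, so these 3 have no value. Ifi35 and Lgals3bp had 2 clusters, and the brighter one was used. Genes entered the tests if their mean over the 12 arrays lay above log2 2.01, the 40th percentile of all clusters, which kept 38 members and 14611 genes in all. Mx1, Rsad2 and Gbp5 lay below this level. Mx1, a GTPase gene that is defective in most inbred mouse strains, had log2 signals of 1.72, 1.32, 1.29 and 1.46 with pre-miR-223, 1.48, 1.36, 1.52 and 1.48 with anti-miR-223, and 1.35, 1.46, 1.65 and 1.29 with scramble. Rsad2, which encodes the antiviral enzyme viperin, had 1.74, 1.81, 1.89 and 2.11 with pre-miR-223, 1.70, 1.69, 1.86 and 2.17 with anti-miR-223, and 1.89, 1.81, 1.68 and 1.78 with scramble. Gbp5 lay between 1.85 and 2.07 in the 12 arrays. In these 3 genes the groups overlapped throughout. Several members have close paralogs (Ifit3, Mx2, the Oas and Gbp genes, Igtp and the Irgm genes), and their clusters may also read a related transcript.

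One array, anti-miR-223 replicate 4, differed most from the remaining 11. Across tested genes, which are not independent replicates, it had a median correlation of 0.967 with them, against 0.988 to 0.992 for the others, and 629 genes lay over 2-fold from their 12-array mean, against at most 37 elsewhere. Small nucleolar RNA genes had a median deviation of -1.41 in it, against -0.12 to 0.35 in the others. Differences of anti-miR-223 from another group are given with and without this array, and its group means include it. All 10 macrophage markers, such as Csf1r and Adgre1, lay above log2 2.01, with list means between 8.44 and 9.06 in the 12 arrays. Markers of fibroblasts (4 of 7 above log2 2.01), epithelium (3 of 5), lymphocytes (2 of 7 with a cluster) and neutrophils (2 of 6) had list means between 1.68 and 2.44. Siglech, a marker of plasmacytoid dendritic cells, which make interferon, averaged below log2 2.01, while the other 4 genes of that list, Bst2 among them, lay above it, and the list mean ran from 3.66 to 3.81 with pre-miR-223, from 3.77 to 3.90 with anti-miR-223 and from 3.78 to 3.94 with scramble.

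Most of the variation lay among arrays of the same group. Among the 38 tested members the spread within groups had a median SD of 0.24 log2 units, against 0.19 over all tested genes, or 0.20 against 0.17 without anti-miR-223 replicate 4. Usp18, which encodes the protease that removes ISG15 and restrains the interferon receptor, varied most (SD 0.63, or 0.33 without that array). The groups accounted for a median of 16.9% of the members' sum of squares, against 13.5% over all tested genes, or 24.4% against 20.3% without that array. The heat map of deviations shows this as columns of colour in single arrays.

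**Figure D1:**
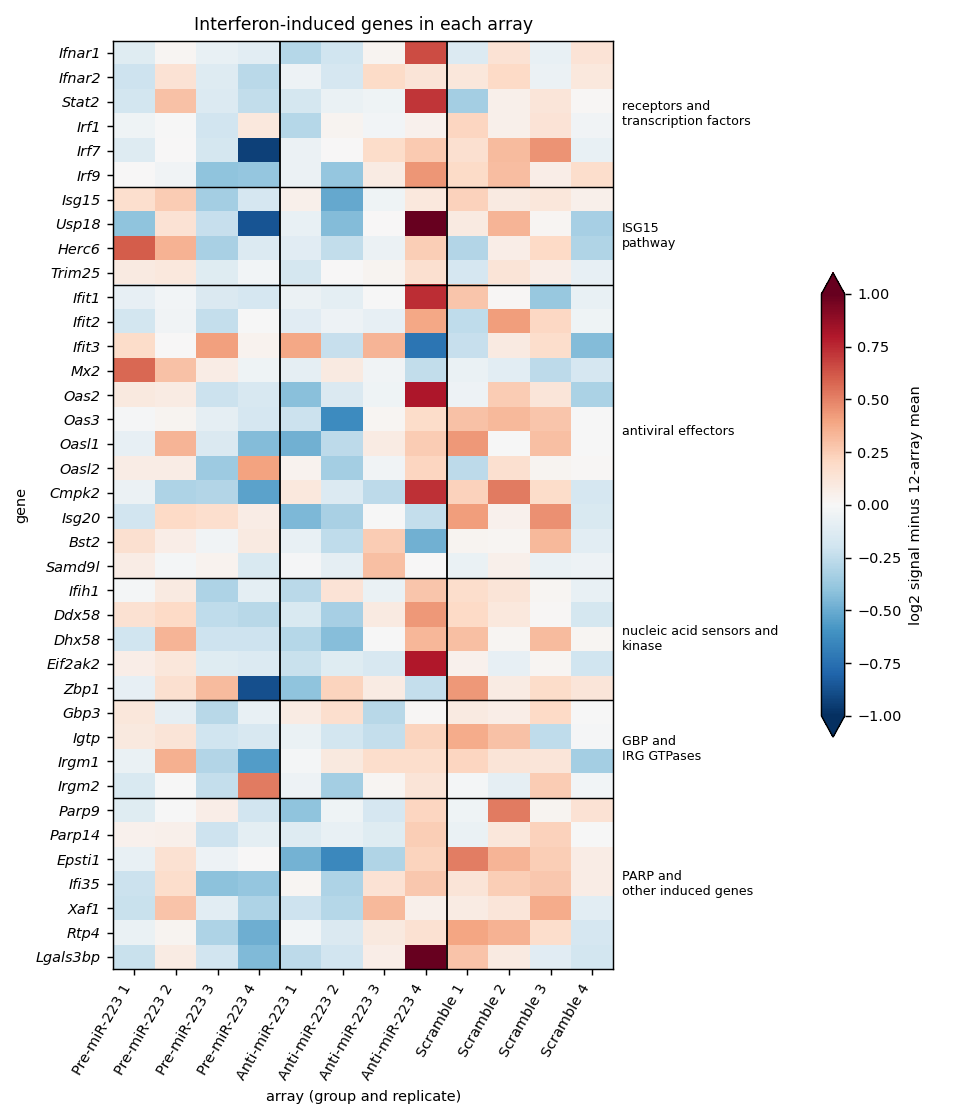
Deviation of each tested member (rows, by role) from its 12-array mean, in log2 units, for the 12 arrays (columns: pre-miR-223, anti-miR-223, scramble); colours end at 1 log2 unit to either side. Usp18 and Lgals3bp in anti-miR-223 replicate 4 are the only members over 2-fold from their mean, and pre-miR-223 replicate 4 is low in Irf7, Usp18 and Zbp1.

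Relative to the 12-array mean, the median of the 38 members was -0.06, 0.09, -0.19 and -0.16 in the pre-miR-223 arrays, -0.11, -0.18, 0.00 and 0.22 in the anti-miR-223 arrays, and 0.12, 0.12, 0.13 and -0.05 in the scramble arrays. The median over all tested genes ran from -0.08 to 0.04 in pre-miR-223, from -0.05 to 0.08 in anti-miR-223 and from -0.01 to 0.07 in scramble. The 3 groups overlapped on the members' median: pre-miR-223 replicate 2 and anti-miR-223 replicates 3 and 4 lay above scramble replicate 4. Anti-miR-223 replicate 4 was the highest of the 12 arrays for 13 of the 38 members (34.2%), against 34.1% of all tested genes. Pre-miR-223 replicate 4 was the lowest for 10 (26.3%), against 19.1% of all tested genes.

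**Figure D2:**
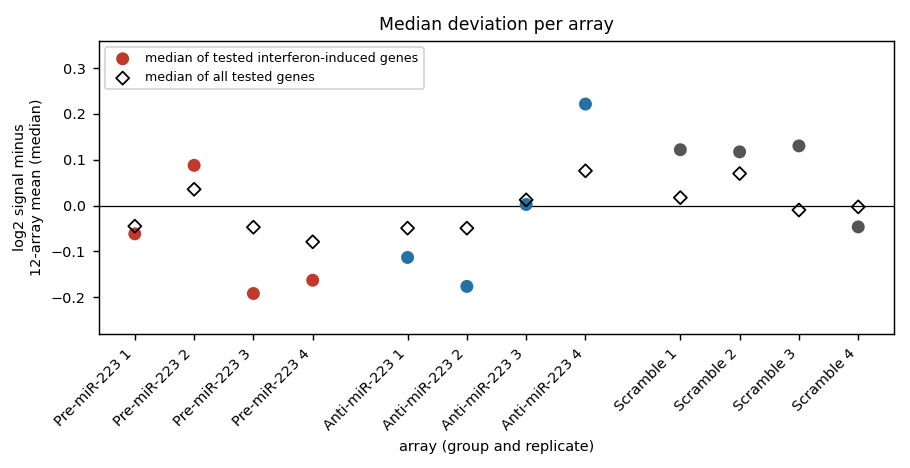
Median deviation from the 12-array mean, in log2 units, of the 38 tested members (filled circles) and of all tested genes (open diamonds) in each array. The members' medians run from -0.19 in pre-miR-223 replicate 3 to 0.22 in anti-miR-223 replicate 4, and the 3 groups overlap.

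The comparison of pre-miR-223 with scramble asks which members follow added miR-223. Irf7, Irf9, Cmpk2, Ifi35 and Rtp4 had lower means with pre-miR-223, by 0.39 to 0.52 log2 units, and Mx2 had a higher one, and none of these differences passed the test. Of the 38 members, 29 had a lower and 9 a higher mean with pre-miR-223 (76.3% lower, against 65.2% of all tested genes), with a median log2 difference of -0.15, against -0.05 over all genes. The gap was smaller among brighter genes. Above log2 2.65, the 60th percentile of all clusters, 27 of 35 members were lower and 8 higher (77.1% lower), against 73.9% of all genes there. The medians were then -0.15 and -0.09. In RNA from whole cultures, fewer cells with a transcript and less of it per cell cannot be told apart. limma called 0 of the 38 members and 0 of 14611 genes (0% called) at an adjusted p under 0.05, and the smallest adjusted p was 0.921. This value varied between limma fits: it was 0.521 without anti-miR-223 replicate 4, 0.234 with array weights and 0.9996 without pre-miR-223 replicate 1. Before adjustment 6 members (15.8%) had a p under 0.05, against 4.87% of all genes. Of the 38 members, 5 were lower and 1 higher at this level, against 3.85% and 1.02% of all genes. The count under 0.05 was 8 members (21.1%) without anti-miR-223 replicate 4, against 9.38% of all genes. It was 10 (26.3%), against 10.3%, if replicate 2 of pre-miR-223 was left out, and 2 (5.26%), against 2.15%, if replicate 4 was. With each array centred on its median, 25 members were lower and 13 higher, with a median of -0.07 beside 0.03 over all genes.

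The leading differences are described by role, each with its values in all arrays. Irf7 encodes the transcription factor that drives interferon-alpha genes. Its log2 signals were 5.47, 5.60, 5.42 and 4.66 with pre-miR-223, 5.53, 5.60, 5.78 and 5.86 with anti-miR-223, and 5.76, 5.91, 6.04 and 5.52 with scramble. The lowest value, in pre-miR-223 replicate 4, stands well below the rest, and pre-miR-223 and scramble overlapped at their ends. The log2 difference of pre-miR-223 was -0.52 (95% CI -0.92 to -0.13, adjusted p = 0.921 by limma), or -0.31 when that array was left out. Irf9, the DNA-binding partner of STAT2 in ISGF3, had 5.81, 5.77, 5.40 and 5.42 with pre-miR-223, 5.75, 5.42, 5.89 and 6.25 with anti-miR-223, and 6.00, 6.11, 5.88 and 5.98 with scramble. Every pre-miR-223 array lay below every scramble array, and the log2 difference was -0.39 (-0.73 to -0.05).

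Among the effectors, Mx2, a GTPase gene related to Mx1, had 3.06, 2.78, 2.56 and 2.44 with pre-miR-223, 2.40, 2.58, 2.45 and 2.24 with anti-miR-223, and 2.42, 2.38, 2.23 and 2.32 with scramble. All pre-miR-223 arrays lay above all scramble arrays, though the nearest arrays lay close together, and the log2 difference was 0.37 (95% CI 0.09 to 0.65). These signals are near log2 2.01, where a difference may be understated. Cmpk2, a mitochondrial nucleotide kinase gene, had 4.11, 3.86, 3.87 and 3.63 with pre-miR-223, 4.27, 4.03, 3.90 and 4.90 with anti-miR-223, and 4.40, 4.68, 4.35 and 4.001 with scramble. Only scramble replicate 4 reached into the range of pre-miR-223, and the log2 difference was -0.49 (-0.92 to -0.06).

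Ifi35 encodes an interferon-induced leucine zipper protein. It had 5.15, 5.54, 4.95 and 4.98 with pre-miR-223, 5.39, 5.06, 5.51 and 5.63 with anti-miR-223, and 5.49, 5.61, 5.63 and 5.44 with scramble. Pre-miR-223 replicate 2 lay within the scramble range, the remaining 3 lay below it, and the log2 difference was -0.39 (95% CI -0.70 to -0.07). Its dimmer cluster averaged 2.49 ± 0.08 with pre-miR-223 and 2.47 ± 0.16 with scramble (SD, n = 4 each) and did not show this difference. Rtp4, a receptor transporter gene, had 5.25, 5.33, 4.998 and 4.82 with pre-miR-223, 5.28, 5.17, 5.41 and 5.46 with anti-miR-223, and 5.71, 5.66, 5.48 and 5.14 with scramble. Scramble replicate 4 lay inside the pre-miR-223 range, and the log2 difference was -0.40 (-0.71 to -0.09).

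The groups did not overlap for 2 members, Mx2 and Irf9 (5.26%, against 2.98% of all genes). Mx2 was higher, against 0.773% of all genes, and Irf9 lower, against 2.20%. Leaving out an array moved the share over all genes as well. The count was 11, against 17.8% of all genes, if replicate 2 of pre-miR-223 was left out, 7, against 5.50%, for scramble replicate 4, and 4, against 5.07%, for replicate 1 of pre-miR-223. By role, the 6 receptor and transcription factor genes were all lower, with a median log2 difference of -0.17, and so were all 7 tested genes of the PARP and other induced group, with -0.22. After centring 5 of the 6 and all 7 were still lower, with medians of -0.09 and -0.15. The sensors and the kinase Eif2ak2 had -0.15 (4 of 5 lower), the GTPases -0.15 (3 of 4), the ISG15 pathway -0.06 (2 of 4) and the antiviral effectors -0.06 (7 of 12). The last 2 medians turned to 0.02 and 0.02 after centring. The median of the 10 macrophage markers was -0.24 in the same comparison, with 8 lower, and their list mean ran from 8.44 to 8.81 with pre-miR-223 and from 8.66 to 8.87 with scramble; their part in the members' values was not tested. The 95% intervals excluded a 2-fold change in either direction for 37 of the 38 members, all but Usp18, against 98.5% of all genes. They excluded a 1.5-fold change for 23 of the 38, against 82.8% of all genes. Their median half-width was 0.34 log2 units, against 0.29 over all genes. The spread behind these intervals is shared by the 3 groups and so includes anti-miR-223 replicate 4, which is in neither group compared here. Without that array a 2-fold change was excluded for all 38 members, with Usp18 at -0.76 to 0.03, and a 1.5-fold change for 28.

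**Figure D3:**
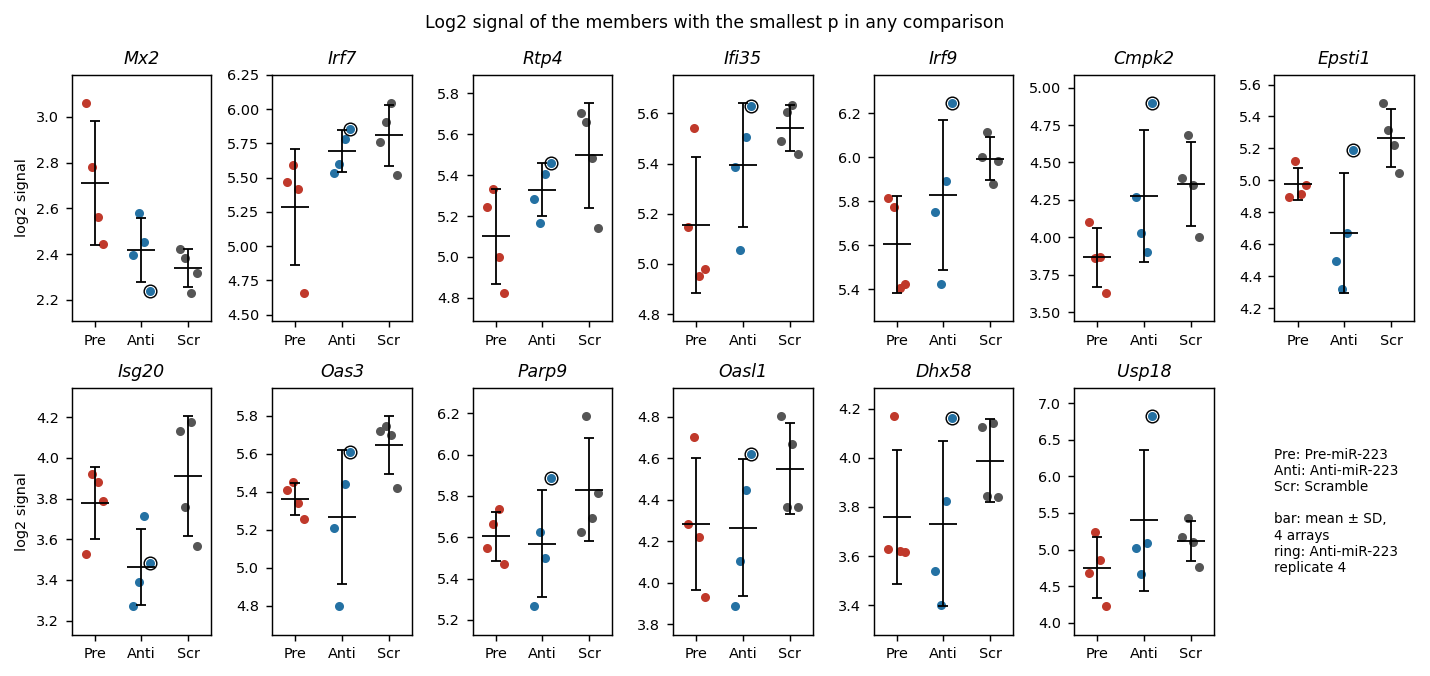
Log2 signal of the 13 members that were among the 6 with the smallest p in at least 1 comparison, by array, with the mean and SD of each group (n = 4); the ring marks anti-miR-223 replicate 4. For Irf9 and Mx2 the pre-miR-223 arrays do not overlap scramble, and for Epsti1 the ringed array is the only one of anti-miR-223 within the scramble range.

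The comparison of anti-miR-223 with scramble asks which members follow a block of miR-223. Epsti1, Isg20 and Oas3 had lower means with anti-miR-223, by 0.38 to 0.59 log2 units, without passing the test. Of the 38 members 25 were lower and 13 higher (65.8% lower, against 52.5% of all genes), with a median log2 difference of -0.09, against -0.01 over all genes. Above log2 2.65, 24 of 35 members were lower and 11 higher (68.6% lower), against 55.3% of all genes there. Without anti-miR-223 replicate 4, 34 of the 38 were lower (89.5%), against 63.6% of all genes, and the median was -0.17, against -0.05. limma called 0 of 38 members and 0 of 14611 genes (0% called), and the lowest adjusted p was 0.99997 among the members and 0.988 over all genes. At an unadjusted p under 0.05 there were 3 members (7.89%), against 2.01% of all genes, and all 3 were lower, against 1.35%. Without anti-miR-223 replicate 4 there were 7 (18.4%), against 6.69% of all genes, all of them lower, against 4.89%, and again 0 calls. These 7 were Epsti1, Isg20, Oas3, Oasl1, Dhx58, Parp9 and Irf9.

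Epsti1, an interferon-induced gene expressed in macrophages and named for its induction in epithelial-stromal co-culture, had log2 signals of 4.90, 5.12, 4.92 and 4.97 with pre-miR-223, 4.498, 4.32, 4.67 and 5.19 with anti-miR-223, and 5.48, 5.31, 5.22 and 5.04 with scramble. In anti-miR-223 it was low in replicates 1 to 3, and replicate 4 lay among the scramble arrays. The log2 difference was -0.59 (95% CI -0.94 to -0.25, adjusted p = 0.99997 by limma). Without anti-miR-223 replicate 4 it was -0.77 (-1.03 to -0.51, adjusted p = 0.194). The difference of pre-miR-223 from the same scramble arrays was -0.29 (-0.64 to 0.06).

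Isg20, an exonuclease gene that acts on single-stranded RNA, had 3.53, 3.92, 3.88 and 3.79 with pre-miR-223, 3.27, 3.39, 3.72 and 3.48 with anti-miR-223, and 4.13, 3.76, 4.18 and 3.57 with scramble. Anti-miR-223 and scramble overlapped through scramble replicate 4, and the log2 difference was -0.44 (95% CI -0.77 to -0.12), or -0.45 without anti-miR-223 replicate 4. Oas3, an oligoadenylate synthetase whose product activates RNase L, had 5.41, 5.45, 5.34 and 5.25 with pre-miR-223, 5.21, 4.80, 5.44 and 5.61 with anti-miR-223, and 5.72, 5.75, 5.70 and 5.42 with scramble. Its log2 difference was -0.38 (-0.70 to -0.05), and it was -0.22 if replicate 2 of anti-miR-223 was left out and -0.50 if replicate 4 was. Scramble replicate 4 was the lowest scramble array in both genes.

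Oasl1, which in mouse restrains the translation of Irf7, had 4.28, 4.70, 4.22 and 3.93 with pre-miR-223, 3.89, 4.11, 4.45 and 4.62 with anti-miR-223, and 4.80, 4.36, 4.67 and 4.36 with scramble. Its log2 difference for anti-miR-223 was -0.28 (95% CI -0.68 to 0.11). It was -0.16 if replicate 1 of anti-miR-223 was left out and -0.40 (-0.78 to -0.03) if replicate 4 was. Dhx58, which encodes the RNA helicase LGP2, had 3.63, 4.17, 3.62 and 3.62 with pre-miR-223, 3.54, 3.40, 3.82 and 4.16 with anti-miR-223, and 4.12, 3.84, 4.14 and 3.84 with scramble. The log2 difference was -0.26 (-0.62 to 0.11). It was -0.15 if replicate 2 of anti-miR-223 was left out and -0.40 (-0.72 to -0.08) if replicate 4 was. Within pre-miR-223, replicate 2 of Dhx58 lay apart from 3 nearly equal arrays. Parp9, which with the ubiquitin ligase DTX3L modifies proteins at DNA damage and in interferon signalling, had 5.55, 5.66, 5.74 and 5.47 with pre-miR-223, 5.27, 5.62, 5.50 and 5.89 with anti-miR-223, and 5.62, 6.19, 5.69 and 5.81 with scramble. Its log2 difference of -0.26 (-0.58 to 0.05) was -0.14 without scramble replicate 2, the highest array, and -0.37 (-0.66 to -0.08) if replicate 4 of anti-miR-223 was left out. By limma these 3 genes had an adjusted p of 0.712 in the fits that omit anti-miR-223 replicate 4.

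The groups overlapped for all 38 members (0 without overlap, against 1.55% of all genes). Without anti-miR-223 replicate 4, 4 members did not overlap, against 6.55% of all genes. By role, the medians were -0.15 for the PARP and other induced group (6 of 7 lower), -0.09 for receptors and factors (4 of 6), -0.09 for GTPases (3 of 4), -0.04 for sensors and kinase (4 of 5), -0.03 for antiviral effectors (7 of 12) and 0.03 for the ISG15 pathway (1 of 4). Without anti-miR-223 replicate 4 all 6 receptors and factors, all 4 genes of the ISG15 pathway, all 5 sensors and kinase and all 7 of the PARP and other induced group were lower, with medians between -0.21 and -0.13. The intervals excluded a 2-fold change for 37 of 38 members, all but Usp18, with 12 arrays, against 98.9% of all genes. If replicate 4 of anti-miR-223 was left out they did so for all but Epsti1, again 37 members, and Usp18 (-0.62 to 0.23) was then among them. A 1.5-fold change was excluded for 30 of 38 members with 12 arrays, against 88.1% of all genes, and for 26 without that array.

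**Figure D4:**
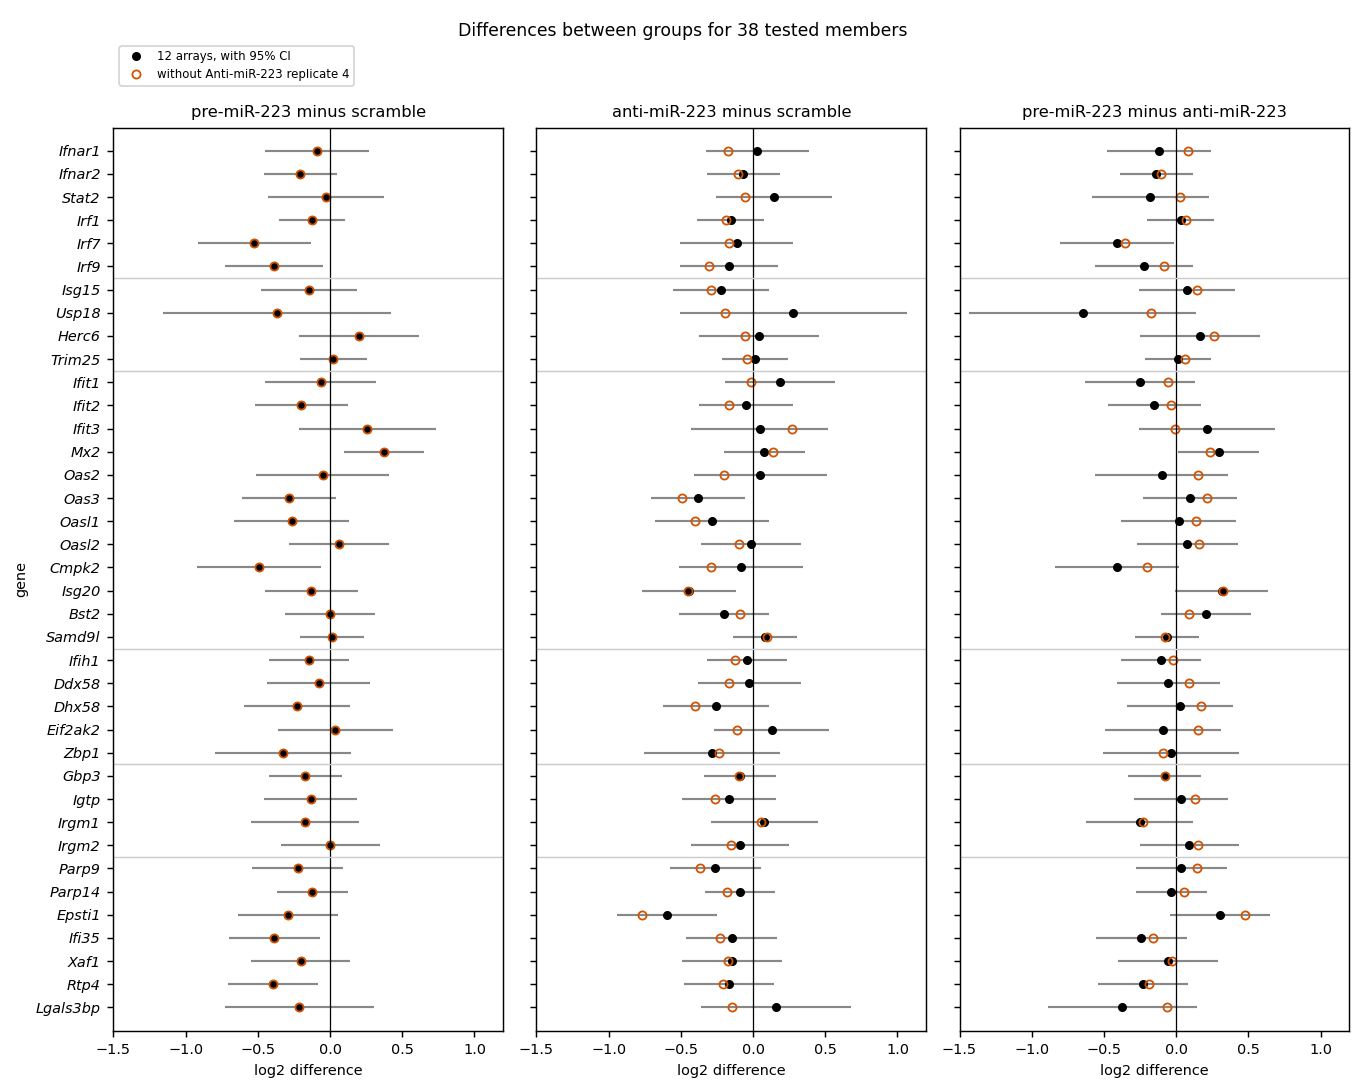
Log2 differences of the 38 tested members in the 3 comparisons, with 95% confidence intervals from the fit of 12 arrays (filled circles and lines) and the value without anti-miR-223 replicate 4 (open circles). Most intervals include 0, and the open circles lie left of the filled ones for most members in anti-miR-223 minus scramble.

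Pre-miR-223 was compared with anti-miR-223 to ask for opposite effects of gain and loss. Members went either way in this comparison: 22 had a lower and 16 a higher mean with pre-miR-223 (57.9% lower, against 62.8% of all genes). Their median log2 difference was -0.06, against -0.04 over all genes. After centring it was 0.02 with 17 lower (44.7%), against 0.03 and 41.0% over all genes. Without anti-miR-223 replicate 4 it was 0.06, again with 17 lower, against -0.01 over all genes. limma called 0 of 38 members and 0 of 14611 genes (0% called), and the smallest adjusted p was 0.946. Before adjustment 2 members (5.26%) had a p under 0.05, against 3.61% of all genes: Mx2 was higher, against 1.05% of all genes, and Irf7 lower, against 2.57%. The count was 6 members (15.8%), against 6.94% of all genes, if replicate 2 of anti-miR-223 was left out. It was 1 (2.63%) without pre-miR-223 replicate 4, against 1.92% of all genes. It was also 1 without anti-miR-223 replicate 1 (against 5.41%) or 4 (4.89%), or without scramble replicate 1 (3.49%) or 2 (3.35%). In the fit that omits anti-miR-223 replicate 4, 52.2% of all genes were lower. No member was without overlap, against 1.67% of all genes.

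The Mx2 difference between pre-miR-223 and anti-miR-223 was 0.29 log2 units (95% CI 0.01 to 0.57), 0.18 when replicate 1 of pre-miR-223 was left out and 0.24 when replicate 4 of anti-miR-223 was. Irf7 differed by -0.41 (-0.80 to -0.02), by -0.20 when replicate 4 of pre-miR-223 was left out and by -0.35 when replicate 4 of anti-miR-223 was. Isg20 differed by 0.32 (-0.01 to 0.64), and again by 0.32 in the fit that omits anti-miR-223 replicate 4. Cmpk2 differed by -0.41 (-0.84 to 0.02), and by -0.20 if replicate 4 of anti-miR-223 was left out. Epsti1 differed by 0.31 (-0.04 to 0.65), or 0.48 without that array and 0.19 without anti-miR-223 replicate 2. All 5 genes had an adjusted p of 0.946 by limma. Usp18 had 4.69, 5.23, 4.86 and 4.22 with pre-miR-223, 5.02, 4.66, 5.10 and 6.82 with anti-miR-223, and 5.18, 5.43, 5.11 and 4.76 with scramble. Its log2 difference of -0.65 (-1.43 to 0.14) was -0.17 without anti-miR-223 replicate 4, the array at 6.82.

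The other receptors and factors differed little between groups. Ifnar1, a subunit of the interferon receptor, had log2 signals of 6.90, 7.04, 6.94 and 6.91 with pre-miR-223, 6.73, 6.82, 7.04 and 7.67 with anti-miR-223, and 6.88, 7.16, 6.94 and 7.15 with scramble. Ifnar2, its partner subunit, had 8.14, 8.49, 8.21 and 8.08 with pre-miR-223, 8.29, 8.18, 8.53 and 8.47 with anti-miR-223, and 8.46, 8.55, 8.28 and 8.45 with scramble. The highest Ifnar1 array was anti-miR-223 replicate 4, and Ifnar2 showed no such array. Stat2, the signal transducer particular to type I and type III interferons, had 3.93, 4.41, 3.99 and 3.87 with pre-miR-223, 3.95, 4.05, 4.07 and 4.83 with anti-miR-223, and 3.78, 4.17, 4.24 and 4.13 with scramble. Irf1, a factor induced by interferon-gamma, had 4.21, 4.25, 4.06 and 4.35 with pre-miR-223, 3.96, 4.28, 4.22 and 4.29 with anti-miR-223, and 4.47, 4.30, 4.39 and 4.22 with scramble. For pre-miR-223 against scramble the log2 differences were -0.09 (95% CI -0.45 to 0.27) for Ifnar1, -0.21 (-0.46 to 0.05) for Ifnar2, -0.03 (-0.43 to 0.37) for Stat2 and -0.13 (-0.36 to 0.11) for Irf1. For anti-miR-223 against scramble Ifnar1 and Stat2 had 0.03 and 0.15, which turned to -0.17 and -0.05 without anti-miR-223 replicate 4, and Ifnar2 and Irf1 had -0.07 and -0.16, or -0.10 and -0.19 in that fit.

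In the ISG15 pathway, Isg15 encodes the ubiquitin-like protein that is joined to others during the response. It had 4.75, 4.83, 4.24 and 4.41 with pre-miR-223, 4.63, 4.07, 4.54 and 4.69 with anti-miR-223, and 4.82, 4.67, 4.69 and 4.63 with scramble. The scramble arrays lay close together, and both other groups had arrays above and below their lowest value. Against scramble, pre-miR-223 differed by -0.15 log2 units (95% CI -0.48 to 0.19) and anti-miR-223 by -0.22 (-0.55 to 0.11). The first was -0.04 if replicate 3 of pre-miR-223 was left out. The second was -0.08 if replicate 2 of anti-miR-223 was left out and -0.29 if replicate 4 was. Herc6, an ISG15 ligase in mouse, averaged 3.68 ± 0.43 with pre-miR-223, 3.52 ± 0.21 with anti-miR-223 and 3.48 ± 0.25 with scramble (SD, n = 4 each). Trim25, a ubiquitin ligase that acts with RIG-I, averaged 7.02 ± 0.11 with pre-miR-223, 7.01 ± 0.14 with anti-miR-223 and 6.99 ± 0.13 with scramble. Differences in these ligase genes were within the spread between arrays.

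The IFIT genes, whose products bind viral RNA, did not share a direction. Ifit1 had log2 signals of 2.504, 2.56, 2.45 and 2.42 with pre-miR-223, 2.53, 2.49, 2.58 and 3.33 with anti-miR-223, and 2.87, 2.60, 2.21 and 2.51 with scramble. Ifit2 had 2.53, 2.68, 2.48 and 2.71 with pre-miR-223, 2.60, 2.67, 2.64 and 3.10 with anti-miR-223, and 2.46, 3.14, 2.92 and 2.68 with scramble. Both were high in anti-miR-223 replicate 4. Ifit3 had 4.10, 3.92, 4.33 and 3.95 with pre-miR-223, 4.31, 3.69, 4.26 and 3.19 with anti-miR-223, and 3.69, 4.004, 4.09 and 3.48 with scramble, and was lowest in that array. For pre-miR-223 against scramble the log2 differences were -0.07 (95% CI -0.45 to 0.32), -0.20 (-0.52 to 0.13) and 0.26 (-0.21 to 0.73) for Ifit1, Ifit2 and Ifit3.

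Other effectors overlapped between all groups. Oas2, a second oligoadenylate synthetase, had 5.78, 5.77, 5.47 and 5.53 with pre-miR-223, 5.27, 5.54, 5.65 and 6.497 with anti-miR-223, and 5.64, 5.94, 5.81 and 5.37 with scramble. Bst2, which encodes tetherin, a protein that holds budding virus at the cell surface, had 6.77, 6.68, 6.58 and 6.70 with pre-miR-223, 6.54, 6.36, 6.87 and 6.13 with anti-miR-223, and 6.64, 6.63, 6.94 and 6.51 with scramble. In anti-miR-223 replicate 4 Oas2 was the highest and Bst2 the lowest of the 12 arrays. Oasl2 averaged 3.08 ± 0.32 with pre-miR-223, 3.003 ± 0.23 with anti-miR-223 and 3.02 ± 0.18 with scramble. Samd9l, a restriction factor for poxviruses, averaged 4.49 ± 0.10 with pre-miR-223, 4.56 ± 0.17 with anti-miR-223 and 4.48 ± 0.06 with scramble (SD, n = 4 each).

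Among the sensors, Ifih1, which encodes the long double-stranded RNA sensor MDA5, had 4.67, 4.79, 4.39 and 4.59 with pre-miR-223, 4.43, 4.84, 4.63 and 4.97 with anti-miR-223, and 4.87, 4.82, 4.71 and 4.62 with scramble. Ddx58, which encodes RIG-I, the sensor of RNA with a 5′ triphosphate, had 5.03, 5.08, 4.63 and 4.60 with pre-miR-223, 4.73, 4.55, 4.97 and 5.31 with anti-miR-223, and 5.08, 4.98, 4.89 and 4.70 with scramble. In pre-miR-223 both were lower in replicates 3 and 4 than in 1 and 2. Eif2ak2, the gene of the kinase PKR, which halts translation on double-stranded RNA, had 6.42, 6.47, 6.23 and 6.22 with pre-miR-223, 6.13, 6.24, 6.19 and 7.16 with anti-miR-223, and 6.40, 6.27, 6.38 and 6.16 with scramble. Its log2 difference was 0.13 (95% CI -0.27 to 0.53) for anti-miR-223 against scramble and -0.11 without anti-miR-223 replicate 4. Zbp1, a sensor of Z-form nucleic acid, averaged 3.51 ± 0.53 with pre-miR-223, 3.55 ± 0.29 with anti-miR-223 and 3.84 ± 0.16 with scramble (SD, n = 4 each). Its difference of -0.32 (-0.79 to 0.15) in the pre-miR-223 comparison was -0.07 when replicate 4 of that group was left out.

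The GTPases that attack vacuoles of intracellular pathogens overlapped between groups as well. Irgm1, a regulator of this family, had 3.86, 4.28, 3.63 and 3.37 with pre-miR-223, 3.91, 4.03, 4.11 and 4.11 with anti-miR-223, and 4.14, 4.06, 4.05 and 3.59 with scramble. Irgm1 was low in pre-miR-223 replicate 4 and scramble replicate 4. Irgm2 averaged 2.90 ± 0.34 with pre-miR-223, 2.81 ± 0.20 with anti-miR-223 and 2.90 ± 0.15 with scramble. Igtp averaged 3.25 ± 0.17 with pre-miR-223, 3.21 ± 0.21 with anti-miR-223 and 3.38 ± 0.29 with scramble (SD, n = 4 each). Gbp3, a guanylate-binding protein gene, was near log2 2.01 at 2.09 ± 0.16 with pre-miR-223, 2.17 ± 0.19 with anti-miR-223 and 2.26 ± 0.09 with scramble.

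Of the other induced genes, Parp14, an ADP-ribosyltransferase gene, averaged 5.96 ± 0.12 with pre-miR-223, 5.99 ± 0.18 with anti-miR-223 and 6.08 ± 0.13 with scramble. Xaf1, a pro-apoptotic gene, averaged 4.78 ± 0.26 with pre-miR-223, 4.84 ± 0.27 with anti-miR-223 and 4.99 ± 0.19 with scramble (SD, n = 4 each). Lgals3bp, which encodes a secreted glycoprotein, had 2 bright clusters that disagreed in 1 array. In anti-miR-223 replicate 4 the brighter cluster was at 8.32, which is 1.19 log2 units above the mean of the other 11 arrays, and the dimmer cluster at 5.39, with a deviation of -1.45 from the same mean of its own. The brighter cluster averaged 7.03 ± 0.21 with pre-miR-223, 7.41 ± 0.63 with anti-miR-223 and 7.25 ± 0.21 with scramble. The dimmer one averaged 6.93 ± 0.14 with pre-miR-223, 6.46 ± 0.72 with anti-miR-223 and 6.75 ± 0.34 with scramble.

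The tested members were also divided by the ISRE core letters in their promoter window. For pre-miR-223 against scramble the median log2 difference was -0.08 over the 13 tested members with the letters (9 lower) and -0.20 over the 17 with a window but no letters (13 lower). For anti-miR-223 against scramble the medians were -0.04 (8 of 13 lower) and -0.08 (12 of 17 lower), or -0.11 and -0.17 without anti-miR-223 replicate 4. Over the 8 with no window the medians were -0.23 with pre-miR-223 (7 lower) and -0.13 with anti-miR-223 (5 lower). The second was -0.21 without that array. The 5 members with a lower mean at an unadjusted p under 0.05 with pre-miR-223 included none with these letters: Irf7, Irf9, Cmpk2 and Ifi35 have windows without them, and Rtp4 has no window in the table. Of the 3 members lower at this level with anti-miR-223, Oas3 has the letters, and Epsti1 and Isg20 have windows without them. No difference between these classes was tested.

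Other genes of the pathway were read from 2 further lists. Of 25 tested genes of interferon signalling and sensing, 21 had a lower mean in pre-miR-223 arrays than in scramble arrays (median log2 difference -0.12) and 14 with anti-miR-223 (-0.03, or -0.08 without anti-miR-223 replicate 4), and limma called 0 in either. Most genes of the array were also lower, 65.2% with pre-miR-223 and 52.5% with anti-miR-223, or 63.6% without anti-miR-223 replicate 4. At an unadjusted p under 0.05, 1 of the 25 was higher and 1 lower with pre-miR-223, against 1.02% and 3.85% of all genes. There were 0 with anti-miR-223, against 2.01% of all genes. In the fit that omits anti-miR-223 replicate 4 there were 2 of the 25, both lower, against 4.89% lower. With pre-miR-223 against anti-miR-223, 20 of the 25 were lower (median -0.12), against 62.8% of all genes (-0.04). Without anti-miR-223 replicate 4, 15 were lower (-0.04), against 52.2% (-0.01). Socs3, a feedback inhibitor of cytokine receptors, had the smallest p with pre-miR-223, at 4.79 ± 0.57, against 4.06 ± 0.27 with scramble (SD, n = 4 each), a difference of 0.73 (95% CI 0.11 to 1.35, adjusted p = 0.921). The same gene led pre-miR-223 against anti-miR-223, with 0.73 (0.10 to 1.35), or 0.49 without anti-miR-223 replicate 4. Mavs, the adaptor of RIG-I and MDA5, led anti-miR-223 against scramble with 0.31 (-0.06 to 0.68), or 0.11 without that array.

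Of 62 further interferon-induced genes, 52 were lower with pre-miR-223 (median log2 difference -0.17) and 40 with anti-miR-223 (-0.05, or -0.12 with 46 lower without anti-miR-223 replicate 4), each against scramble. The shares of all genes that were lower in the same fits were 65.2%, 52.5% and 63.6%, with medians of -0.05, -0.01 and -0.05. limma called 0 of them. At an unadjusted p under 0.05, 3 of the 62 were lower with pre-miR-223, against 3.85% of all genes, and 1 of the 62 higher with anti-miR-223, against 0.664%. In the fit that omits anti-miR-223 replicate 4, 8 of the 62 were lower with pre-miR-223, against 7.64% of all genes. With anti-miR-223, 6 of the 62 were then lower and 0 higher, where 4.89% of all genes were lower. Between pre-miR-223 and anti-miR-223, 50 of the 62 were lower with pre-miR-223 (median -0.12), against 62.8% of all genes (-0.04). Without anti-miR-223 replicate 4, 36 were lower (-0.05), against 52.2% (-0.01). Oas1c, an oligoadenylate synthetase gene near log2 2.01, led pre-miR-223 against scramble with -0.41 (95% CI -0.71 to -0.12) and did not overlap. Oas1b led anti-miR-223 against scramble with 0.25 (0.01 to 0.49), and 0.20 in the fit that omits anti-miR-223 replicate 4, and Psme1, a proteasome activator gene, led pre-miR-223 against anti-miR-223 with -0.41 (-0.68 to -0.13), or -0.32 in the same fit. Adjusted p values by limma were 0.921, 0.99997 and 0.946 for these 3 genes.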

How the data were processed

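Total RNA of the 12 samples was labelled with the WT PLUS reagents, per the labels' protocols. The authors deposited normalised log2 signals for 41345 transcript clusters. Tools named by the submitters without a version or role are Affymetrix Expression Console, RMA and Partek, per the submitters' processing notes. No source used here gives the base of the logarithm; base 2, the RMA scale, was assumed, and the values ran from 0.531 to 12.4. Normalisation between arrays hides a shift of all genes. Of the clusters, 23521 carried a single gene symbol in the platform annotation, 1814 carried several and 16010 were unnamed. The brightest cluster per symbol was used.

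One limma model (3.58.1, R 4.3.3; lmFit and eBayes) was fitted to 12 arrays and 14611 genes, with 9 residual degrees of freedom and no covariate. Tests were 2-sided with Benjamini-Hochberg adjustment over all genes, called at an adjusted p under 0.05, and the procedure was tested on simulated data. Array number limits the precision. Members, lists and the naming rule were chosen with earlier results of these data known. The rule names 22 members by role, the 6 with the smallest p per comparison, and the smallest p of each pathway list. Comparisons share their control arrays. Alternatives were other filters, scalings, variance models, array weights, a replicate block and each array left out.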

Additional observations from a re-analysis of the deposited data

Results flagged for a closer look

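Groups of 4 arrays (41 members, 3 groups) were examined by Dixon's criterion at the 95% level. In 9 of 123 groups (7.32%) the highest or lowest array lay apart from the other 3. Chance gives about 1 group in 20 if groups are independent. The members share the same arrays, so the count cannot be judged against that rate. The share of all tested genes flagged by this rule was not counted. Of the 9 flagged groups, 5 had high values in anti-miR-223 replicate 4, the array that stands apart over all genes. There Stat2 was at log2 4.83, Ifit1 at 3.33, Ifit2 at 3.10, Eif2ak2 at 7.16 and Parp14 at 6.26, while the nearest other anti-miR-223 arrays were at 4.07, 2.58, 2.67, 6.24 and 5.94. In pre-miR-223 replicate 2, Dhx58 was at 4.17, with the other arrays of that group at or below 3.63. Scramble replicate 4 was low for Oas3, at 5.42, and for Irgm1, at 3.59. Scramble replicate 2 was high for Samd9l, at 4.56. No cause of these values was tested.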

How the results depend on the processing

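In the 3 comparisons 0 members and 0 genes were called under all 23 alternatives (11 other settings and 12 fits without 1 array). Among these, the ordinary linear model used plain t tests without the eBayes step. It had 5, 3 and 1 members at an unadjusted p under 0.05 (in the order pre-miR-223 and then anti-miR-223, each against scramble, and last the 2 oligonucleotides against each other). The members' median log2 difference moved from its value with all 12 arrays by less than the spread of the arrays' medians within groups (SD 0.13) in all 23 alternatives. It ran from -0.20 to -0.10, from -0.17 to -0.03 and from -0.13 to 0.06 when single arrays were left out. Replicate numbers showed no clear pairing of the samples, though with 4 arrays per group correlations cannot exclude pairing. Deviations from the group means correlated above 0.1 across genes in 4 of 12 same-numbered pairs (-0.50 to 0.39). Of the 12 arrays, 2 correlated best with their own number. With the replicate block the calls were again 0, the medians -0.15, -0.09 and -0.06, and the members at an unadjusted p under 0.05 again 6, 3 and 2. Over all genes, 711, 294 and 528 had an unadjusted p under 0.05; array weights gave 1884, 623 and 793, and leaving out single arrays gave 314 to 1510, 220 to 978 and 280 to 1147. The members' median of the last comparison was above 0 with centring (0.02), cyclic loess (0.01) and array weights (0.04). Over all genes it was 0.03, -0.01 and -0.02 in these settings. The 3 members of anti-miR-223 against scramble became 5 with array weights. The 2 of pre-miR-223 against anti-miR-223 became 4 after repeated quantile normalisation and 1 with the 60th percentile filter or with only the compared groups. Among the 415 values per comparison from the other settings, 12, 6 and 17 changed sign, and among the 456 from fits without 1 array 24, 33 and 40 did, all of them differences that had not passed the test. With Lgals3bp averaged over its clusters, its difference between pre-miR-223 and anti-miR-223 was 0.05, against -0.37 with the brighter cluster. Differences of genes near log2 2.01 may be understated.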
